A study of Mus musculus with 20 samples.

Results

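Blood transcriptomes of *Lyn*-deficient mice that kept 1 functional copy of *Irf5* (*Lyn*-/-*Irf5*+/-, n = 4) were compared with those of *Lyn*-deficient mice that kept none (*Lyn*-/-*Irf5*-/-, n = 4). These 8 mice were chosen by their genotype labels from a series of 20, which also holds WT, *Lyn*-/- and *Lyn*-/-*Ifnar1*-/- mice (n = 4 each). All were C57BL/6 females of 22 to 23 weeks, and peripheral blood RNA was sequenced. Both genotypes compared lacked *Lyn*, and the *Irf5* alleles were germline alleles, so every cell of the body carried them. *Lyn*-/- mice, with both *Irf5* copies, *Lyn*-/-*Ifnar1*-/- mice and WT mice are given as levels only. Values are RPKM (reads per kilobase of gene, set to library size) scaled by trimmed mean of M values, and 8255 of the 9228 listed genes were tested, those reaching 1 RPKM in 4 or more of the 8 mice.

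*Lyn* encodes a Src family kinase that restrains B cell and myeloid signalling, and mice without it develop a disease resembling systemic lupus erythematosus (SLE). IRF5 is a transcription factor activated downstream of Toll-like receptors through MyD88, and it drives inflammatory cytokine and type I interferon (IFN) genes. Type I IFN in turn acts through its receptor to induce a broad set of IFN-stimulated genes (ISGs), many of which carry a response element bound by STAT and IRF proteins in the promoter.

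Mice 2, 3 and 4 of *Lyn*-/-*Irf5*+/- had fewer recovered reads than every *Lyn*-/-*Irf5*-/- mouse. Recovered reads leave out *Beta-s*, the adult β-globin gene, so a larger hemoglobin share lowers them at the same library depth. Full library depth is not known here, and shallow means few recovered reads below. The whole reads recovered from the steps of the RPKM values summed to 1486260, 873673, 812981 and 1202224 in *Lyn*-/-*Irf5*+/- mice 1 to 4, against 1345509 to 1726853 in *Lyn*-/-*Irf5*-/- mice. Hemoglobin genes took 60.6%, 78.9%, 75.8% and 71.0% of the RPKM of *Lyn*-/-*Irf5*+/- mice 1 to 4, against 60.4% to 68.4% in *Lyn*-/-*Irf5*-/- mice. Correlations between libraries across genes, which are not independent replicates, were 0.960 to 0.973 within *Lyn*-/-*Irf5*+/-, 0.978 to 0.984 within *Lyn*-/-*Irf5*-/- and 0.961 to 0.978 between them. The *Lyn*-/-*Irf5*+/- samples were registered after the rest of the series, and no label gives a library batch, so genotype and any such batch cannot be told apart.

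*Irf5* itself (chromosome 6, 29526625 to 29541871 of GRCm38) had 33.5, 27.7, 28.4 and 25.4 RPKM in *Lyn*-/-*Irf5*+/- mice, against 38.5, 35.1, 40.8 and 38.2 RPKM in *Lyn*-/-*Irf5*-/- mice. Transcript reads were thus abundant in mice labelled as having no functional copy, and all 4 lay above the 4 mice with 1 copy. The log2 difference (here and throughout *Lyn*-/-*Irf5*+/- minus *Lyn*-/-*Irf5*-/-, on log2(RPKM + 0.5)) was -0.41 (SE 0.12, limma adjusted p = 0.132). An exact two-sided permutation test over the 8 mice gave p = 0.0286, which is the lowest value that 8 mice can give. A value for the whole gene can take in reads from any exon that the null allele keeps, so it does not check the labels. *Lyn* (chromosome 4, 3678115 to 3813122) had 8.83, 13.8, 13.3 and 7.71 RPKM in *Lyn*-/-*Irf5*+/- mice, against 9.74, 7.43, 11.4 and 10.3 RPKM in *Lyn*-/-*Irf5*-/- mice, and the groups overlapped (exact two-sided permutation test, p = 0.543). WT mice had 34.6 ± 2.44 RPKM of *Lyn* (SD, n = 4).

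At an adjusted p under 0.05 in limma, 106 genes were higher in *Lyn*-/-*Irf5*+/- than in *Lyn*-/-*Irf5*-/- blood (1.28% of the genes tested) and 19 were lower (0.23%), together 1.51%. Genes of erythroid cells led the rise, with a few antioxidant and respiratory chain genes, and ISGs led the fall, with complement and myeloid genes. The called log2 differences ran between 0.63 and 1.57 for genes that rose and between -0.62 and -1.73 for genes that fell, while the median over all genes tested was -0.04. The 4 mice of one genotype lay entirely above or below the 4 of the other for 103 of the 106 higher and 18 of the 19 lower genes, against 4.08% (above) and 4.22% (below) of all genes tested. The calls rest on these same values, so this separation is no further support for them. The calls stood close to the threshold. The smallest adjusted p was 0.0264, and 1258 genes (15.2%) had an unadjusted p under 0.05, of which 670 (8.12% of all tested) were higher and 588 (7.12%) lower. No gene passed in limma once *Lyn*-/-*Irf5*+/- mouse 2, 3 or 4 or *Lyn*-/-*Irf5*-/- mouse 1, 2 or 3 was left out (smallest adjusted p 0.0519 to 0.11, with 944 to 1174 genes at an unadjusted p under 0.05), whereas 554 passed without *Lyn*-/-*Irf5*+/- mouse 1 and 115 without *Lyn*-/-*Irf5*-/- mouse 4. None passed with all 20 libraries in 1 model (smallest adjusted p 0.212, 698 genes at an unadjusted p under 0.05) or without the variance trend (0.0519 and 1221 genes). All 125 genes kept their sign in each of these fits, which is no separate support. The model of 20 libraries and the fit without the trend leave every difference unchanged. The fits with a mouse left out reuse mice on which the genes were called.

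**Figure D1:**
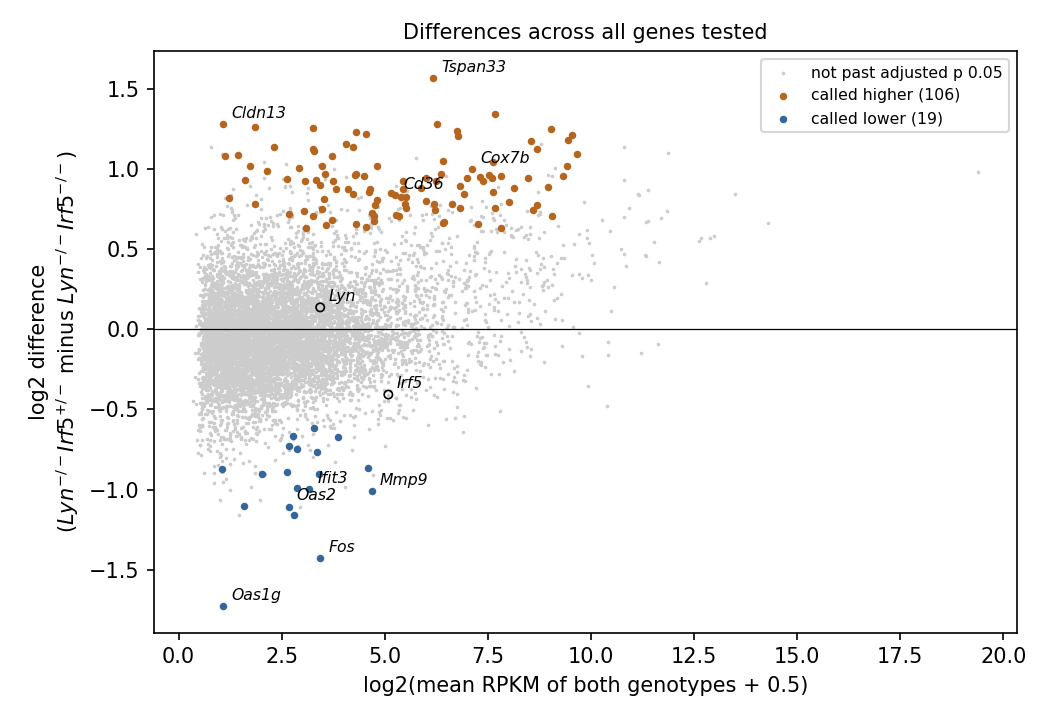
Log2 difference (*Lyn*-/-*Irf5*+/- minus *Lyn*-/-*Irf5*-/-) against the log2 of the mean RPKM of both genotypes plus 0.5, 1 point per gene tested. The 106 genes called higher and the 19 called lower by limma are coloured, and *Irf5* and *Lyn* are circled, neither of them called.

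Several ISGs were lower with 1 copy of *Irf5* than with none. Of 58 ISGs tested, 7 fell (*Oas1a*, *Oas1g*, *Oas2*, *Ifit3*, *I830012O16Rik*, *Slfn5* and *Lgals3bp*), none rose and 51 did not pass. The median log2 difference of the list was -0.36, with 45 members below 0, and 25 were lower and 2 higher at an unadjusted p under 0.05. Over all 8255 genes tested, 0.23% were called lower and 4651 had a difference below 0. At an unadjusted p under 0.05 in limma, 7.12% of them were lower and 8.12% higher. *Oas2*, a sensor of double-stranded RNA that makes 2′-5′ oligoadenylate, had 3.95, 3.08, 2.58 and 4.50 RPKM in *Lyn*-/-*Irf5*+/- mice, against 6.29, 7.14, 8.91 and 10.3 RPKM in *Lyn*-/-*Irf5*-/- mice. Every mouse with 1 copy lay below every mouse with none, at a log2 difference of -1.11 (SE 0.19, limma adjusted p = 0.0266). *Ifit3*, an adaptor of the antiviral IFIT complex that binds foreign RNA ends, had 5.17, 5.10, 4.99 and 6.67 RPKM in *Lyn*-/-*Irf5*+/- mice, against 10.99, 9.27, 13.3 and 12.4 RPKM in *Lyn*-/-*Irf5*-/- mice (log2 difference -0.998, SE 0.15, adjusted p = 0.0264). Its neighbour *I830012O16Rik* (*Ifit3b*) had 4 to 9 reads per *Lyn*-/-*Irf5*+/- mouse, against 21 to 36 reads per *Lyn*-/-*Irf5*-/- mouse. The split of reads between these near-identical genes is uncertain, as it is between *Oas1a* and *Oas1g*.

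*Slfn5*, a Schlafen family member, had 5.87, 3.40, 4.37 and 4.08 RPKM in *Lyn*-/-*Irf5*+/- mice, against 8.29, 9.21, 9.39 and 9.79 RPKM in *Lyn*-/-*Irf5*-/- mice (log2 difference -0.99, SE 0.16, adjusted p = 0.0266). *Oas1a* had 7.12, 2.10, 3.63 and 3.33 RPKM in *Lyn*-/-*Irf5*+/- mice, against 8.02, 8.59, 9.50 and 9.65 RPKM in *Lyn*-/-*Irf5*-/- mice. Mouse 1 of *Lyn*-/-*Irf5*+/- stood near the *Lyn*-/-*Irf5*-/- range of *Oas1a*, and the other 3 were far below it (log2 difference -1.16, SE 0.25, adjusted p = 0.0437). *Oas1g* had 1.56, 0.284, 0 and 0.371 RPKM in *Lyn*-/-*Irf5*+/- mice, against 1.497, 3.70, 2.88 and 2.48 RPKM in *Lyn*-/-*Irf5*-/- mice, so that these groups overlapped (log2 difference -1.73, SE 0.37, adjusted p = 0.0419). *Lgals3bp*, which encodes a secreted galectin-3 binding glycoprotein, had 20.4, 14.4, 12.7 and 19.3 RPKM in *Lyn*-/-*Irf5*+/- mice, against 28.02, 28.4, 32.0 and 32.7 RPKM in *Lyn*-/-*Irf5*-/- mice (log2 difference -0.87, SE 0.16, adjusted p = 0.0267).

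Most ISGs, some of them abundant, did not pass. *Isg20*, an exonuclease, had 2702, 6045, 6866 and 5120 RPKM in *Lyn*-/-*Irf5*+/- mice, against 1884, 2305, 2298 and 2732 RPKM in *Lyn*-/-*Irf5*-/- mice (log2 difference 1.10, SE 0.28, adjusted p = 0.0758). At these levels it was among the most abundant transcripts of this blood. *Usp18*, the protease that removes ISG15 from proteins, had a log2 difference of -0.62 (SE 0.17, adjusted p = 0.0935). Of other widely used ISGs, picked after their values were seen, *Ifit1* had a log2 difference of -0.37 (adjusted p = 0.398), *Isg15* one of 0.29 (adjusted p = 0.48) and *Irf7* one of 0.17 (adjusted p = 0.657). Averaged as log2(RPKM + 0.5) over the list, ISGs scored 3.90, 3.55, 3.71 and 3.80 in *Lyn*-/-*Irf5*+/- mice, against 3.92, 4.08, 4.15 and 4.10 in *Lyn*-/-*Irf5*-/- mice, 4.07 to 4.53 in *Lyn*-/- mice and 3.33 to 3.64 in WT mice. *Lyn*-/-*Irf5*+/- mouse 1 came closest to the *Lyn*-/-*Irf5*-/- range. The summed RPKM of the list, in which abundant members such as *Isg20* weigh most, lay the other way, at 11259, 20335, 20757 and 16477 RPKM in *Lyn*-/-*Irf5*+/- mice, against 9385, 10456, 10306 and 13998 RPKM in *Lyn*-/-*Irf5*-/- mice. This sum does not track type I IFN signalling. *Lyn*-/-*Ifnar1*-/- mice, which lack its receptor, summed to 8175 to 38356 RPKM, against 9924 to 16613 RPKM in WT mice. Their averaged ISG score was 2.21 to 2.52. *Isg20* averaged 7103 RPKM in *Lyn*-/-*Ifnar1*-/- mice and 3405 RPKM in WT mice. Of 32 IFN-α genes that the study had picked on these libraries, which makes them no independent evidence of a direction, 2 were lower, none was higher and the median was -0.18. Called lower were 0.23% of all genes tested. In the list of IFN-γ responses, 1 of 30 was lower, namely *Fcgr1*, the high-affinity IgG receptor. It had 4.29, 3.50, 4.57 and 3.002 RPKM in *Lyn*-/-*Irf5*+/- mice, against 7.08, 6.34, 8.22 and 8.47 RPKM in *Lyn*-/-*Irf5*-/- mice (log2 difference -0.89, SE 0.16, adjusted p = 0.0266).

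Promoters were read from RefSeq (GRCm38.p6, 250 bases before to 50 after the gene start) for 16 of the 19 lower and 85 of the 106 higher genes. The core of the IFN-stimulated response element, which is GAAA, any 2 bases and GAAA again on either strand, occurred in 6 of the 16 (37.5%) and 3 of the 85 (3.53%), against 4.38% of the 6711 tested genes with a promoter and 3.44% of all 32851 promoters in the table. Of 43 tested ISGs with a promoter, 19 (44.2%) held it, so it was not particular to those called lower. The lower genes that hold it were *Emilin2* and 5 ISGs, among them the near-identical pairs *Ifit3* with *I830012O16Rik* and *Oas1a* with *Oas1g*. A stretch of 100 bases is shown for 3 of these, with the core in capitals, because these genes fell together and differ in where the letters lie. *Ifit3* (chr19:34583343-34583442, plus strand) holds the core on the opposite strand, starting 156 and 122 bases before the gene start, and the same 100 bases stand before *Ifit3b*. *Slfn5* (chr11:82951917-82952016, plus strand) holds it within a run of A, 155 bases before the RefSeq start. The GENCODE annotation starts this gene further upstream, at 82951349, so that the stretch lies inside it. *Oas1a* (chr5:120907526-120907625, minus strand) holds a pair of overlapping cores, 20 and 14 bases before the start.
Ifit3: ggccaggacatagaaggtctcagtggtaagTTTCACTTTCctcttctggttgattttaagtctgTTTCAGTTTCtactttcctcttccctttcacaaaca
Slfn5: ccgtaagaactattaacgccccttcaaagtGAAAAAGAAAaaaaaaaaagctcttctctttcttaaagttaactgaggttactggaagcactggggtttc
Oas1a: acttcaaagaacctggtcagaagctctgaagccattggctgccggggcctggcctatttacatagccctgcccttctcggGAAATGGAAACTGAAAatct

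A match of letters shows neither a bound site nor a cause of the fall.

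**Figure D2:**
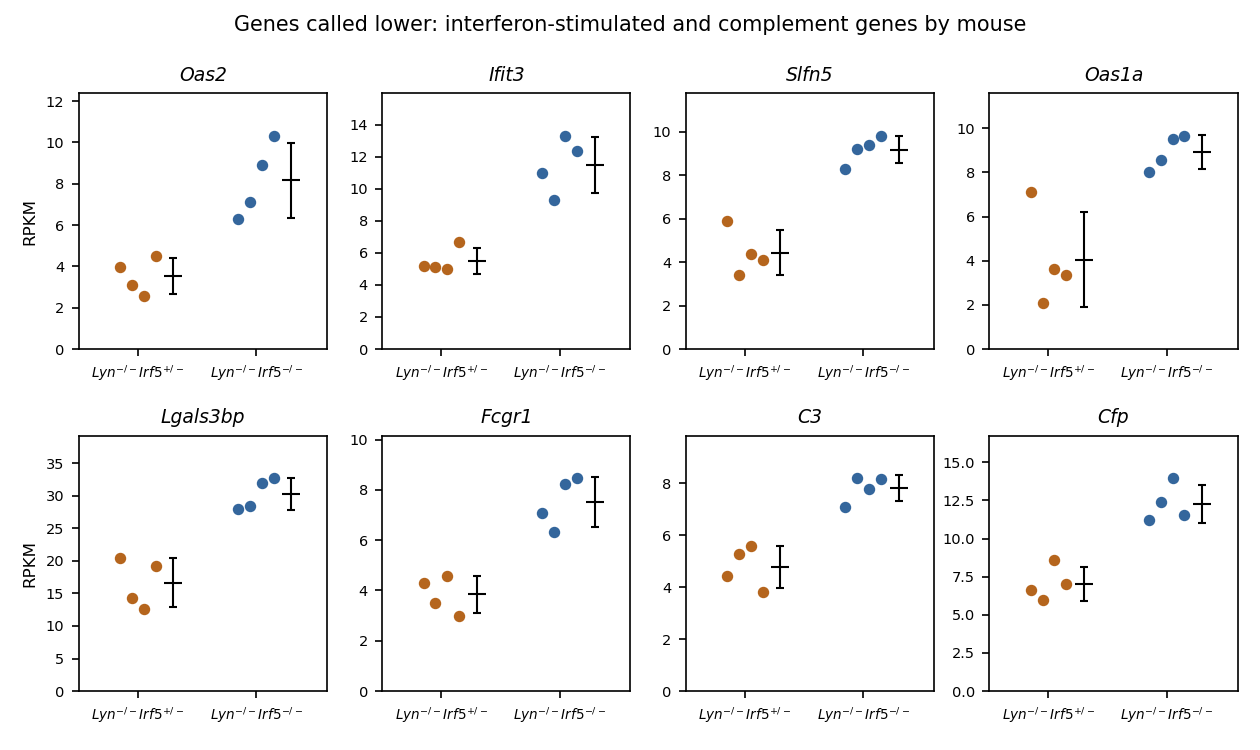
RPKM of 8 genes called lower, by mouse (points), with the mean and SD of each genotype (n = 4) beside them. In all 8 panels every *Lyn*-/-*Irf5*+/- mouse lies below every *Lyn*-/-*Irf5*-/- mouse, and mouse 1 of *Lyn*-/-*Irf5*+/- is the nearest to them for *Oas1a*, at 7.12 RPKM.

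A few complement and myeloid genes also fell. Of 8 complement genes tested, 2 were lower and none higher, where 0.23% of all genes tested were called lower. *C3*, the central complement component, had 4.43, 5.29, 5.58 and 3.82 RPKM in *Lyn*-/-*Irf5*+/- mice, against 7.10, 8.20, 7.78 and 8.18 RPKM in *Lyn*-/-*Irf5*-/- mice (log2 difference -0.67, SE 0.15, adjusted p = 0.0442). *Cfp*, which encodes properdin, the stabiliser of the alternative pathway convertase, had 6.62, 5.94, 8.59 and 7.04 RPKM in *Lyn*-/-*Irf5*+/- mice, against 11.2, 12.4, 13.97 and 11.5 RPKM in *Lyn*-/-*Irf5*-/- mice (log2 difference -0.77, SE 0.14, adjusted p = 0.0286). For both genes the genotypes did not overlap. *Fos*, a subunit of the AP-1 transcription factor, had 4.07, 2.43, 6.55 and 10.4 RPKM in *Lyn*-/-*Irf5*+/- mice, against 13.03, 14.2, 16.2 and 15.8 RPKM in *Lyn*-/-*Irf5*-/- mice (log2 difference -1.43, SE 0.31, adjusted p = 0.0425). *Fos* was the only one of 18 immediate early and stress genes to pass. *Mmp9*, the neutrophil gelatinase, had 14.8, 9.92, 20.4 and 22.1 RPKM in *Lyn*-/-*Irf5*+/- mice, against 27.1, 43.9, 33.5 and 29.1 RPKM in *Lyn*-/-*Irf5*-/- mice (log2 difference -1.01, SE 0.23, adjusted p = 0.0493).

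Among NF-κB targets, 1 of 31 was lower, *Tnfaip2*, with a log2 difference of -0.67 (SE 0.14, adjusted p = 0.0374), where 0.23% of all genes tested were called lower. The list moved both ways, with 13 members above 0 and 18 below. At an unadjusted p under 0.05 in limma, 3 of its members were higher and 4 lower, against 8.12% and 7.12% of all genes tested. The remaining lower genes were *Emilin2*, an extracellular matrix glycoprotein (-0.90, adjusted p = 0.046), *Fads2*, the delta-6 fatty acid desaturase (-0.91, adjusted p = 0.033), *Idua*, a lysosomal enzyme that breaks down glycosaminoglycans (-0.87, adjusted p = 0.0351), *Rasgrp4*, a Ras activator of mast and myeloid cells (-0.75, adjusted p = 0.0336), *Tmem176b*, a membrane protein of myeloid cells (-0.73, adjusted p = 0.0434) and *Pdia6*, a protein disulfide isomerase (-0.62, adjusted p = 0.0395), each given as log2 difference. Neither *Idua* nor *Fads2* rested on many reads, with 5 to 15 per *Lyn*-/-*Irf5*+/- mouse and 25 to 42 per *Lyn*-/-*Irf5*-/- mouse over both genes.

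Markers of neutrophils and classical monocytes had negative medians and 1 called gene, whereas nonclassical monocyte markers had a positive median (0.23) and 1 gene called higher. By comparison, 0.23% of all genes tested were called lower and 1.28% higher. Of 23 neutrophil markers, *Mmp9* was lower, none was higher and the median log2 difference was -0.31. Their summed level was 1767 to 5318 RPKM in *Lyn*-/-*Irf5*+/- mice, against 3000 to 4065 RPKM in *Lyn*-/-*Irf5*-/- mice, and none of the markers in the table was at 0 in all 4 mice of either genotype. None of 12 classical monocyte markers passed, at a median of -0.51, and their summed level was 2362 to 3572 RPKM in *Lyn*-/-*Irf5*+/- mice, against 2825 to 3305 RPKM in *Lyn*-/-*Irf5*-/- mice. *F13a1*, coagulation factor XIII of monocytes, had 20.5, 23.1, 26.5 and 19.2 RPKM in *Lyn*-/-*Irf5*+/- mice, against 27.9, 34.3, 33.4 and 40.2 RPKM in *Lyn*-/-*Irf5*-/- mice (log2 difference -0.59, SE 0.15, adjusted p = 0.067). The part of these cells in the fall of the ISGs was not tested. In whole blood, fewer cells of a type and less RNA per cell cannot be told apart.

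A set of erythroid genes was higher with 1 copy of *Irf5* than with none. Of 39 tested, 10 rose, none fell and all 39 had a positive difference, at a median of 0.58. Over all genes tested, 1.28% rose and 43.7% had a positive difference. *Tspan33*, a tetraspanin of erythroid progenitors and B cells, had the largest rise of all genes called. It had 65.5, 119.0, 132.0 and 110.3 RPKM in *Lyn*-/-*Irf5*+/- mice, against 25.9, 37.4, 38.0 and 38.6 RPKM in *Lyn*-/-*Irf5*-/- mice (log2 difference 1.57, SE 0.21, adjusted p = 0.0264). Mouse 1 had the lowest level of its genotype and still stood above every *Lyn*-/-*Irf5*-/- mouse. *Car2*, a carbonic anhydrase of red cells, had 398.9, 563.5, 608.9 and 689.3 RPKM in *Lyn*-/-*Irf5*+/- mice, against 192.4, 279.6, 239.2 and 325.3 RPKM in *Lyn*-/-*Irf5*-/- mice (log2 difference 1.12, SE 0.20, adjusted p = 0.0266). These groups did not overlap either.

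*Trim10*, a tripartite motif protein needed for terminal erythroid differentiation, had 260.8, 259.9, 310.0 and 363.8 RPKM in *Lyn*-/-*Irf5*+/- mice, against 116.2, 167.6, 161.5 and 171.5 RPKM in *Lyn*-/-*Irf5*-/- mice (log2 difference 0.95, SE 0.16, adjusted p = 0.0266). The groups stood well apart. The rise also took in *Rhd* of the Rh blood group complex (log2 difference 0.97, adjusted p = 0.0269) and *Slc25a37*, the mitochondrial iron importer (0.79, adjusted p = 0.0434). The most abundant erythroid transcripts did not pass. *Alas2*, the first enzyme of erythroid heme synthesis, had 19539, 26288, 26824 and 24670 RPKM in *Lyn*-/-*Irf5*+/- mice, against 11889, 15849, 13551 and 21304 RPKM in *Lyn*-/-*Irf5*-/- mice (log2 difference 0.66, SE 0.31, adjusted p = 0.331). *Beta-s*, the adult β-globin gene, had a log2 difference of 0.98 (SE 0.84, adjusted p = 0.625), with 383304 RPKM in *Lyn*-/-*Irf5*+/- mouse 1 and 780931 to 1365505 RPKM in the other 3, against 352849 to 611550 RPKM in *Lyn*-/-*Irf5*-/- mice.

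The erythroid score separated the genotypes at 6.22, 6.48, 6.45 and 6.55 in *Lyn*-/-*Irf5*+/- mice, against 5.54, 5.90, 5.75 and 6.10 in *Lyn*-/-*Irf5*-/- mice. *Lyn*-/- mice scored 7.02 to 8.38 and WT mice 6.09 to 6.61. The hemoglobin share was also higher in *Lyn*-/-*Irf5*+/- mice 2, 3 and 4 than in every *Lyn*-/-*Irf5*-/- mouse, and in mouse 1 it was 60.6%. Without mice 2 and 3, the shallowest libraries, no gene passed in limma (882 at an unadjusted p under 0.05), and the erythroid median was 0.52. The part of recovered reads and hemoglobin share, which are not separate measures, in these calls was not tested. The direction of this list also rested on the scaling. With every library set to the same RPKM sum, of which hemoglobin takes most, the erythroid median turned to -0.22 while that of all genes tested moved to -0.73, and none of the 106 higher genes passed.

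Letters of the GATA factor motif (AGATAA, either strand) occurred in the promoters of 7 of 24 matched erythroid genes (29.2%), *Trim10* and *Rhd* among them, and in 10.6% of the 85 higher genes, against 8.03% of the tested genes with a promoter and 11.2% of all promoters in the table. The share among the higher genes was thus between these backgrounds, and 7 of 43 matched ISGs (16.3%) held the letters too. GATA1 is the master regulator of red cell genes, and the stretch of *Trim10* (chr17:36869381-36869480, plus strand) is shown with the motif in capitals, on the opposite strand, as an example from the genes that rose.
Trim10: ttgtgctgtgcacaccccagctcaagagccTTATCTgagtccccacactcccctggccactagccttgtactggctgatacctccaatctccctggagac

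**Figure D3:**
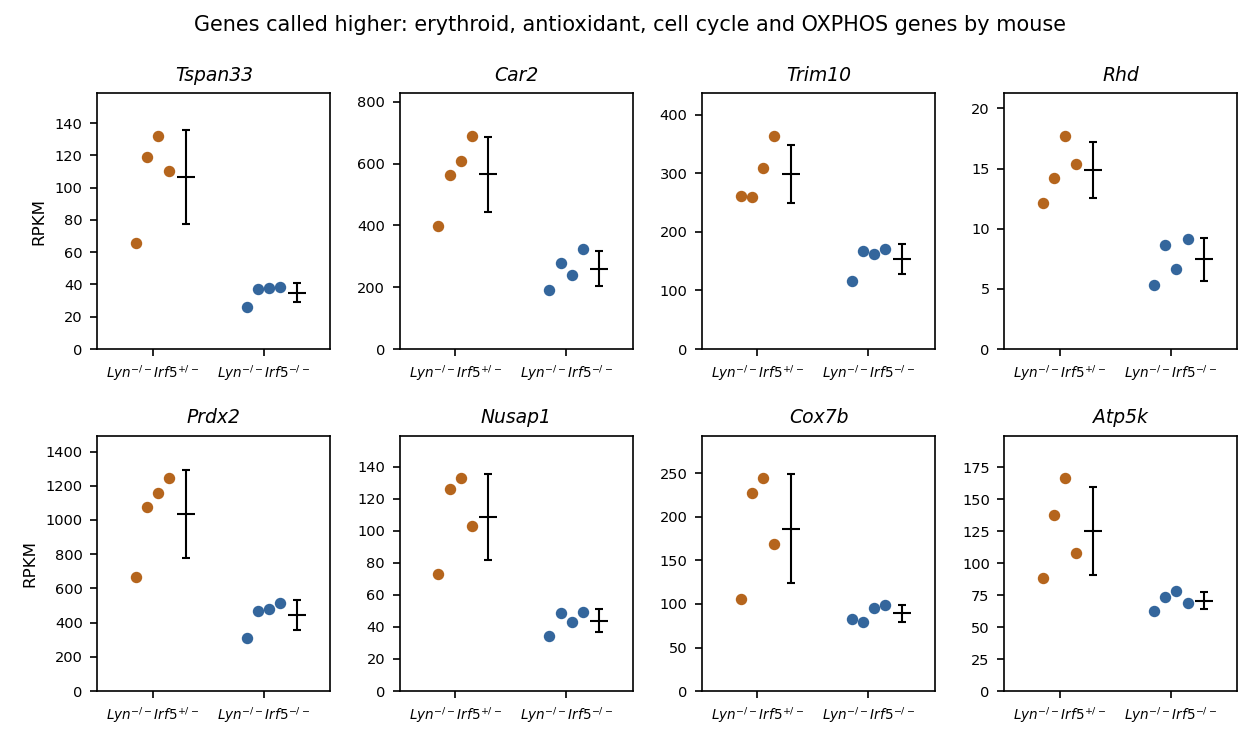
RPKM of 8 genes called higher, by mouse (points), with the mean and SD of each genotype (n = 4) beside them. Every *Lyn*-/-*Irf5*+/- mouse lies above every *Lyn*-/-*Irf5*-/- mouse, and *Lyn*-/-*Irf5*+/- mouse 1 has the lowest level of its genotype in 7 of the panels, 65.5 RPKM for *Tspan33* among them.

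Other genes that rose included antioxidant and cell cycle genes. Over all genes tested, 1.28% were called higher. Of 21 antioxidant genes 3 were higher and none lower, at a median of 0.23. *Prdx2*, the peroxiredoxin of red cells, had 665.5, 1074, 1156 and 1245 RPKM in *Lyn*-/-*Irf5*+/- mice, against 312.9, 469.8, 478.1 and 512.2 RPKM in *Lyn*-/-*Irf5*-/- mice (log2 difference 1.21, SE 0.22, adjusted p = 0.0266). *Blvrb*, which reduces biliverdin, rose by 1.02 on the log2 scale (SE 0.21, adjusted p = 0.0414) and *Gclm*, the modifier subunit of the glutathione-making ligase, by 0.85 (SE 0.17, adjusted p = 0.0363). *Gpx1*, a glutathione peroxidase and one of the most abundant transcripts, did not pass (log2 difference 0.85, SE 0.31, adjusted p = 0.221). Of 14 mitotic genes 2 were higher and none lower, with a median of -0.01. *Nusap1*, a spindle protein, had 73.1, 126.0, 133.0 and 103.2 RPKM in *Lyn*-/-*Irf5*+/- mice, against 34.3, 48.9, 43.1 and 49.4 RPKM in *Lyn*-/-*Irf5*-/- mice (log2 difference 1.28, SE 0.19, adjusted p = 0.0264). *Ube2c*, a ubiquitin-conjugating enzyme of the anaphase-promoting complex, had a log2 difference of 0.94 (adjusted p = 0.0437). Further large rises were those of *Memo1* (log2 difference 1.34, adjusted p = 0.0336), *Cldn13*, a claudin of mouse erythroid cells (1.28, adjusted p = 0.0266, from 4 to 11 reads per *Lyn*-/-*Irf5*+/- mouse and 2 to 5 per *Lyn*-/-*Irf5*-/- mouse), *Gadd45a*, a stress response gene (1.24, adjusted p = 0.0266), and *Hagh*, the glyoxalase that clears methylglyoxal adducts (1.18, adjusted p = 0.0266).

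Of the oxidative phosphorylation (OXPHOS) genes, 1 subunit each of complexes IV and V was called. Of the listed subunits, 0 of 33 in complex I, 0 of 4 in complex II, 0 of 9 in complex III, 1 of 11 in complex IV and 1 of 16 in complex V were higher in limma, and none was lower. By comparison, 1.28% of all genes tested were called higher and 0.23% lower. At an unadjusted p under 0.05, which 8.12% of all genes tested reached in the higher direction, 4, 0, 2, 4 and 5 of them were higher and 1, 1, 0, 0 and 0 lower, in the same order, and the medians were 0.09, -0.08, 0.29, 0.27 and 0.21. *Cox7b*, a small subunit of cytochrome c oxidase, had 105.9, 227.3, 244.7 and 168.6 RPKM in *Lyn*-/-*Irf5*+/- mice, against 83.0, 79.3, 95.1 and 99.0 RPKM in *Lyn*-/-*Irf5*-/- mice (log2 difference 0.997, SE 0.22, adjusted p = 0.0469). *Atp5k*, a subunit of ATP synthase, had 88.5, 137.6, 166.5 and 107.7 RPKM in *Lyn*-/-*Irf5*+/- mice, against 62.8, 73.5, 77.8 and 68.7 RPKM in *Lyn*-/-*Irf5*-/- mice (log2 difference 0.78, SE 0.18, adjusted p = 0.0495). For both, mouse 1 was the nearest to the *Lyn*-/-*Irf5*-/- range and mice 2 and 3, the shallowest, were the highest. *Atp5b*, the catalytic beta subunit of ATP synthase, had 242.3, 358.8, 351.5 and 327.2 RPKM in *Lyn*-/-*Irf5*+/- mice, against 197.6, 206.6, 197.2 and 241.8 RPKM in *Lyn*-/-*Irf5*-/- mice (log2 difference 0.59, SE 0.15, adjusted p = 0.0808). *Uqcrh* of complex III had a log2 difference of 0.86 (adjusted p = 0.0884).

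Of the 36 OXPHOS genes the study had chosen on these libraries, likewise no independent evidence of a direction, 1 was higher, none was lower and the median was 0.15. Their summed level was 2677, 4166, 4593 and 3634 RPKM in *Lyn*-/-*Irf5*+/- mice, against 2286, 2359, 2410 and 2972 RPKM in *Lyn*-/-*Irf5*-/- mice, and mouse 1 lay within the *Lyn*-/-*Irf5*-/- range. Complex IV subunits scored 6.20, 6.88, 7.03 and 6.69 in *Lyn*-/-*Irf5*+/- mice, against 6.33, 6.25, 6.36 and 6.44 in *Lyn*-/-*Irf5*-/- mice, so that mouse 1 lay below the *Lyn*-/-*Irf5*-/- range and the other 3 above it. Single genes outside the complexes rose as well, among them *Mrpl32* of the mitochondrial ribosome (log2 difference 0.82, adjusted p = 0.0266, 1 of 70 in its list) and *Psmd4*, a ubiquitin receptor of the proteasome (0.95, adjusted p = 0.0266, 1 of 31). For comparison with these counts, 1.28% of all genes tested were called higher. None of 71 cytosolic ribosomal protein genes passed in limma, although 70 of them had a positive difference (median 0.34) and 26 were higher at an unadjusted p under 0.05. Over all genes tested, 43.7% had a positive difference and 8.12% were higher at that threshold.

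**Figure D4:**
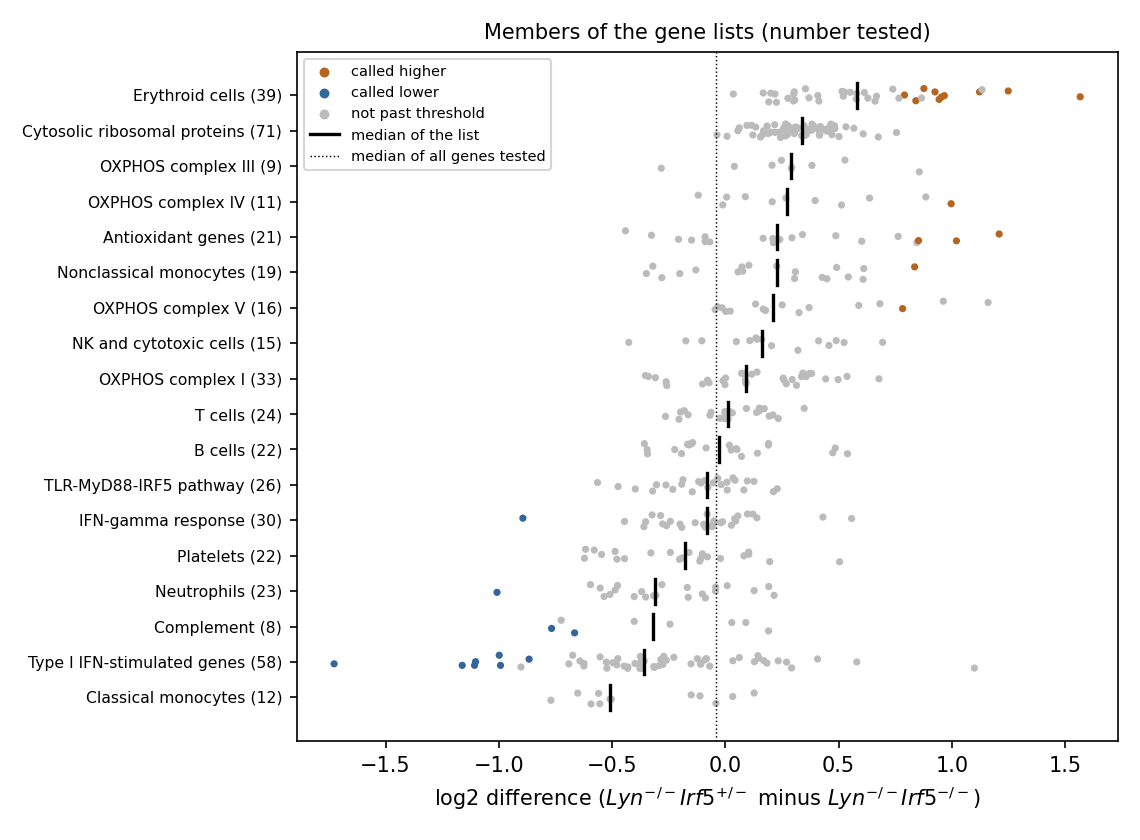
Log2 difference (*Lyn*-/-*Irf5*+/- minus *Lyn*-/-*Irf5*-/-) of each tested member of 18 gene lists, with the list median (bar) and the median of all genes tested (dotted line, -0.04). Erythroid genes lie to the right, at a median of 0.58, and ISGs to the left, at -0.36.

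With 1.51% of all genes called, 19 of the 35 lists held no called gene, those nearest to IRF5 itself among them. None of 26 genes of the Toll-like receptor, MyD88 and IRF5 pathway passed in limma, at a median log2 difference of -0.08 (3 lower and 0 higher at an unadjusted p under 0.05). At that threshold 7.12% of all genes tested were lower and 8.12% higher. *Unc93b1*, the chaperone that brings nucleic acid-sensing Toll-like receptors to endosomes, had 26.0, 20.2, 26.7 and 23.2 RPKM in *Lyn*-/-*Irf5*+/- mice, against 29.1, 34.7, 34.7 and 35.4 RPKM in *Lyn*-/-*Irf5*-/- mice (log2 difference -0.47, SE 0.13, adjusted p = 0.097). None of the 8 IRF family genes passed (2 lower and 0 higher at an unadjusted p under 0.05). *Irf4*, which guides plasma cell and T cell fate, had a log2 difference of -0.54 (SE 0.19, adjusted p = 0.192). Nor did any of 21 genes of the IL-6 and STAT3 pathway (median -0.14; 1 lower and 0 higher at an unadjusted p under 0.05).

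The lymphocyte lists were also among the 19 without a called gene. None of 22 B cell markers (median -0.03), 24 T cell markers (0.01) or 15 NK and cytotoxic markers (0.16) passed in limma, with 3, 0 and 5 higher and 0, 0 and 0 lower at an unadjusted p under 0.05. Of all genes tested, 8.12% were higher and 7.12% lower at that threshold. A positive difference was found in 12 of the 15 NK and cytotoxic markers, against 43.7% of all genes tested. The summed B cell markers were 323.6 to 363.4 RPKM in *Lyn*-/-*Irf5*+/- mice, against 313.5 to 454.2 RPKM in *Lyn*-/-*Irf5*-/- mice, 140.4 to 203.0 RPKM in *Lyn*-/- mice and 961.3 to 1299 RPKM in WT mice. Against a share of 1.28% of all genes tested, 1 of 19 nonclassical monocyte markers was called higher and none lower, at a median of 0.23. It was *Cd36*, a scavenger receptor for oxidised lipids that red cell precursors and platelets also carry, with 37.2, 58.5, 52.2 and 45.4 RPKM in *Lyn*-/-*Irf5*+/- mice, against 23.6, 23.7, 28.2 and 31.2 RPKM in *Lyn*-/-*Irf5*-/- mice (log2 difference 0.84, SE 0.16, adjusted p = 0.0289). Over all 35 lists, 20 of the 106 higher and 13 of the 19 lower genes belonged to at least 1 list, as did 708 of the 8255 genes tested.

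The level in mice with both *Irf5* copies (*Lyn*-/-) gives each set of genes a different order by copy number. This is a description, since the calls and the levels share libraries. Among the 106 higher genes, the mean of *Lyn*-/-*Irf5*+/- mice lay between those of *Lyn*-/-*Irf5*-/- and *Lyn*-/- mice for 96 (90.6%), against 39.5% of all genes tested and 38.2% of those with a higher mean in *Lyn*-/-*Irf5*+/- than in *Lyn*-/-*Irf5*-/- mice. Their median log2 difference from *Lyn*-/- mice was -0.90 in *Lyn*-/-*Irf5*+/- and -1.79 in *Lyn*-/-*Irf5*-/- mice. For most of these genes the mean was thus higher with each further copy, among mice without *Lyn* only. From WT mice, which also have both copies, the medians were 0.36 in *Lyn*-/-*Irf5*+/- and -0.56 in *Lyn*-/-*Irf5*-/- mice. By these medians WT mice lay below the mice with 1 copy. *Trim10*, for example, averaged 155 RPKM with none, 299 RPKM with 1 and 1026 RPKM with both copies, with 258.5 RPKM in WT mice. The lower genes followed no such order. *Lyn*-/-*Irf5*+/- mice had the lowest mean of these 3 genotypes for 18 of the 19 (94.7%), against 33.5% of all genes tested and 59.4% of those whose mean was below that of *Lyn*-/-*Irf5*-/- mice, which is a condition that the choice of these 19 genes had set. Their median log2 difference from *Lyn*-/- mice was -0.67 in *Lyn*-/-*Irf5*+/- mice, against 0.39 in *Lyn*-/-*Irf5*-/- mice. Set beside WT mice, the same medians were 0.60 in *Lyn*-/-*Irf5*+/- and 1.59 in *Lyn*-/-*Irf5*-/- mice. *Ifit3* averaged 11.5 ± 1.75 RPKM with none, 5.48 ± 0.793 RPKM with 1 and 5.76 ± 0.881 RPKM with both copies, with 3.61 ± 1.78 RPKM in WT mice (SD, n = 4 each).

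**Figure D5:**
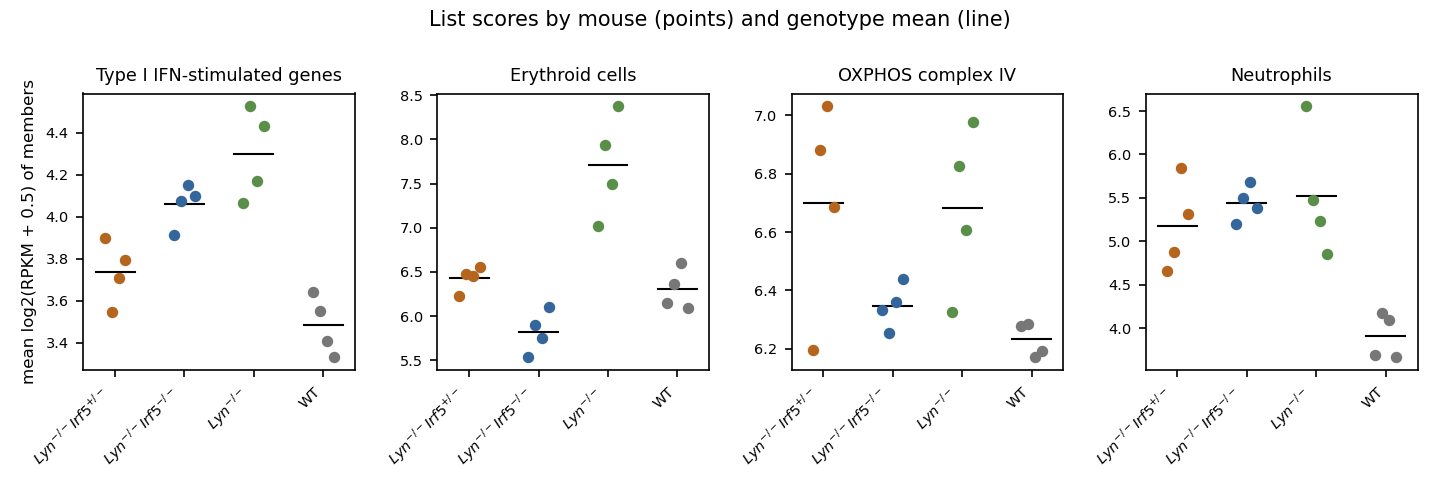
Mean log2(RPKM + 0.5) over the tested members of 4 lists, by mouse (points), with the genotype mean (line), in *Lyn*-/-*Irf5*+/-, *Lyn*-/-*Irf5*-/-, *Lyn*-/- and WT mice. The axes do not start at 0. The ISG score of *Lyn*-/-*Irf5*+/- mice (3.55 to 3.90) lies below that of *Lyn*-/-*Irf5*-/- mice (3.92 to 4.15) and overlaps that of WT mice (3.33 to 3.64), and their erythroid score (6.22 to 6.55) lies above that of *Lyn*-/-*Irf5*-/- mice and below that of *Lyn*-/- mice.

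*Tspan33*, with the largest called rise, is a close neighbour of *Irf5*. It occupies 29694222 to 29718559 of chromosome 6, 152 kb from *Irf5*. Within 2 Mb of *Irf5* on either side, a window chosen after these values were seen, 19 other genes were tested, with a median log2 difference of -0.02. *Tspan33* and *Arf5*, a small GTPase 1100 kb away (log2 difference 0.67, SE 0.14, adjusted p = 0.0414), were higher and none was lower. Over all genes tested, 1.28% were called higher and 0.23% lower. *Tspan33* averaged 34.97 RPKM in *Lyn*-/-*Irf5*-/-, 106.7 RPKM in *Lyn*-/-*Irf5*+/-, 291.1 RPKM in *Lyn*-/- and 273.0 RPKM in *Lyn*-/-*Ifnar1*-/- mice. *Arf5* averaged 66.27, 106.2, 365.5 and 321.8 RPKM in the same order. The *Lyn*-/-*Irf5*+/- mean lay between those of *Lyn*-/-*Irf5*-/- and *Lyn*-/- mice for 96 of the 106 higher genes. *Impdh1*, an enzyme of guanine nucleotide synthesis 310 kb away, had 4.72, 2.59, 2.33 and 4.30 RPKM in *Lyn*-/-*Irf5*+/- mice, against 6.64, 4.98, 5.56 and 5.38 RPKM in *Lyn*-/-*Irf5*-/- mice, without overlap (log2 difference -0.67, SE 0.21, adjusted p = 0.142). *Tnpo3*, whose annotated end overlaps that of *Irf5*, had a log2 difference of -0.08 (adjusted p = 0.84). The *Irf5* allele and the linked DNA around it cannot be told apart in these mice.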

How the data were processed

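Per the labels and the study's methods, the authors prepared strand-specific libraries from peripheral blood RNA, aligned reads to mm10 with STAR, counted them with featureCounts and deposited RPKM values scaled with edgeR's trimmed mean of M values, 1 column per mouse. The study's methods name 1 more mouse per strain than the deposited columns. Which filter chose the 9228 genes is not given in the sources used here. Nothing says whether samples were prepared in separate batches.

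Genes that reached 1 RPKM in 4 or more of the 8 mice were compared as log2(RPKM + 0.5). Limma (version 3.58.1, run under R 4.3.3) was fitted with a variance trend, genotype as the only term and Benjamini-Hochberg adjustment over all 8255 genes (threshold 0.05). A fold on this scale understates the change of low genes. *Irf5* and *Lyn* were also compared by exact permutation (scipy 1.17.1). Because the low RPKM values of each gene move in equal steps, whole reads could be read back for 9222 of 9228 genes (within 0.05 reads), with a median gene at 17 to 42 reads in *Lyn*-/-*Irf5*+/- and 35 to 52 in *Lyn*-/-*Irf5*-/- mice. These reads served for the recovered totals and for limma-voom as an alternative. The recovered totals leave out *Beta-s*, *Alas2* and the other genes without recovered reads.

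The 35 gene lists hold 892 entries, 799 of them matched to the table by symbol or synonym. They were written from general knowledge apart from the pair chosen by the study. Members and lists were chosen with earlier results of these data known. Named genes are *Irf5* and *Lyn*, the 12 largest changes each way among called genes without overlap, up to 4 genes of smallest p per list and the 5 most abundant genes. The text gives a part of them and, chosen after their values were seen, *Oas1g*, *Rhd*, *Isg15*, *Irf7*, *Ifit1*, *Rasgrp4*, *Tmem176b*, *Pdia6*, *Arf5*, *Impdh1* and *Tnpo3*. Positions of genes are from GENCODE vM21 (GRCm38, the assembly named mm10 by the authors). Promoter stretches and the distances of motifs from the gene start are from RefSeq. Alternatives covered pseudocount, filter, scaling, libraries in the model, variance model, block and leaving out each library. The model was tested on simulated data before use.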

Additional observations from a re-analysis of the deposited data

Results flagged for a closer look

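In 184 groups of 4 mice (57 genes, *Irf5* and *Lyn* among them, and 35 list scores, in both genotypes), 8 had 1 mouse whose gap to the nearest of the others exceeded Dixon's 95% critical value. Chance alone flags about 1 in 20 such groups, and these groups share mice. In *Lyn*-/-*Irf5*+/-, mouse 1 stood below the others for *Isg15* (375.8 RPKM), mouse 4 above them for *Ifit3* (6.668 RPKM) and mouse 2 below them for the B cell score (3.21). In *Lyn*-/-*Irf5*-/-, mouse 1 stood below the others for *Tspan33* (25.9 RPKM), *Trim10* (116.2 RPKM), *Unc93b1* (29.07 RPKM) and the score of the Toll-like receptor, MyD88 and IRF5 pathway (2.16), and mouse 4 above them for the antioxidant score (5.75). No gene passed in limma (1080 at an unadjusted p under 0.05) when *Lyn*-/-*Irf5*-/- mouse 1 was left out, whereas 554 passed without *Lyn*-/-*Irf5*+/- mouse 1.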

How the results depend on the processing

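Of 125 genes called (106 higher, 19 lower in *Lyn*-/-*Irf5*+/-), counts stayed within 1.5 times under either other pseudocount, either other filter, median-of-ratios scaling, robust empirical Bayes and a replicate block. Leaving out 1 library gave 0 to 554 called genes, 0 to 420 higher and 0 to 134 lower, with 0 to 14 ISGs lower and 0 to 17 erythroid genes higher. The counts were 0 without *Lyn*-/-*Irf5*+/- mouse 2, 3 or 4 or *Lyn*-/-*Irf5*-/- mouse 1, 2 or 3, and 8 genes were lower without *Lyn*-/-*Irf5*-/- mouse 4. With all 20 libraries in 1 model, with limma without trend, and without both shallowest libraries (*Lyn*-/-*Irf5*+/- mice 2 and 3, chosen after seeing the data), 0 genes were called in either direction or in either list. The last fit had 882 genes at an unadjusted p under 0.05, and the list medians were -0.20 for ISGs and 0.52 for erythroid genes. Array weights gave 304 calls (241 higher, 63 lower) and 11 lower ISGs. Limma-voom on the recovered reads gave 269 calls (216 higher, 53 lower).

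Setting every library to the same RPKM sum moved the median of all genes to -0.73, with 556 calls, 0 higher and 556 lower, 27 lower ISGs and 0 higher erythroid genes. The same outside hemoglobin genes moved it to -0.38, with 762 calls (74 higher, 688 lower) and 27 lower ISGs. Under the first of these 95 of the 125 called genes kept their sign, and under each other setting all that could be fitted kept it. Several of these settings cannot change a sign, and all reuse mice on which the genes were called. The genes named that turned were *Atp5k* (log2 difference -0.01), *Slc25a37* (-0.01), *Arf5* (-0.13), *Alas2* (-0.14), *Atp5b* (-0.21), *Isg15* (-0.51) and *Irf7* (-0.63) under the same RPKM sum, and *Isg15* (-0.09) and *Irf7* (-0.21) under the same sum outside hemoglobin genes. *Lyn* turned to -0.63, -0.23 and, without both shallowest libraries, -0.21. *Irf5* passed at -1.19 and -0.79 under these scalings, at -0.46 with array weights and at -0.48 without *Lyn*-/-*Irf5*+/- mouse 1. With 1 library left out it ranged from -0.48 to -0.35 and *Lyn* from 0.01 to 0.28. Apart from the scalings and left-out libraries, for which the numbers of genes and samples are given, the cause of these changes was not tested.

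The replicate numbers do not pair the mice. Deviations of same-numbered mice correlated at 0.0139, -0.149, 0.0498 and -0.0666 across genes, and the replicate block gave 137 calls (119 higher, 18 lower), with 7 lower ISGs and 10 higher erythroid genes. Few reads limit low genes, since the median gene held 17 or 18 reads in the pair of libraries with the fewest recovered reads.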
